A study of Mus with 6 samples.

Results

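The transcripts of 10 genes that move calcium or respond to it were examined in mouse cardiac microvascular endothelial cells: the calcium/calmodulin-dependent protein kinase II (CaM kinase II) genes Camk2a, Camk2b, Camk2d and Camk2g, the pump genes of the endoplasmic reticulum (ER) Atp2a2 and Atp2a3, the plasma membrane pump genes Atp2b1 and Atp2b4, and the inositol trisphosphate (IP3) receptor genes Itpr1 and Itpr2. These 10 of the 20893 genes measured were taken by symbol and were chosen because, in the comparison of KO with WT described here, Camk2b was higher and Atp2a2 and Atp2b4 were lower. Their KO against WT values are therefore a description. Where a gene is said to have passed or not passed the threshold of the fit across all genes, this only places it among all genes and supports nothing about the set. Endothelial cells bearing CD31 and lacking CD45 had been sorted from the hearts with magnetic beads. There were 3 libraries from mice lacking Ccl28 (KO) and 3 from wild-type mice (WT), both with replicate numbers 2, 3 and 4, and all hearts, WT included, had undergone left coronary artery ligation, which causes a myocardial infarction. For KO replicates 3 and 4 the title names a Ccl28 knockout while the genotype entry reads Ccl29 and Ccl30, and the title was followed. Whether the deletion is in all cells, the strain, the sex, the age and the time after ligation were not given in the sources used here, and it is not stated that each library is an animal of its own. The p-values below therefore refer to the spread among these libraries, which may be technical.

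In a resting cell, cytosolic calcium is kept low by pumps that move it into the ER (the SERCA pumps, products of the Atp2a genes) or out of the cell (the PMCA pumps, products of the Atp2b genes). Receptors that activate phospholipase C, among them the VEGF receptors and Gq-coupled receptors of endothelium, raise IP3, which opens the IP3 receptor channels of the ER. The released calcium binds calmodulin, and calcium-calmodulin activates CaM kinase II, a holoenzyme of many subunits that can keep itself active by autophosphorylation. In endothelium such calcium signals drive nitric oxide synthesis, barrier control and migration, and in cardiomyocytes the same families run the beat-to-beat calcium cycle.

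Levels are FPKM, fragments scaled to gene-model length and library size. Levels of different genes are set side by side on that scale, although FPKM still ran with length in each library, as given below. Means are given ± SD with n = 3 per genotype, library values in the order of replicate numbers 2, 3 and 4, and log2 fold changes give KO over WT, fitted on log2(FPKM + 1), with their standard error (SE). The added 1 FPKM understates the change of low genes. The libraries held 36004457 to 37780513 reads in genes in KO and 39104282 to 40500067 in WT. Ccl28 had 0 reads in each KO library and 16, 11 and 24 in WT. The 10 endothelial markers checked, such as Pecam1 and Cdh5, summed to 3829.8 to 4152 FPKM in KO and 4101 to 4181 FPKM in WT. In limma 2 of the 10 were called higher and 4 lower, beside 18.3% and 25.8% of all tested genes. Kdr, the main VEGF receptor gene, fell to 149 ± 25.3 FPKM in KO, against 260.5 ± 22.1 in WT, Cdh5 to 569 ± 52.4 FPKM in KO, against 766 ± 14.1 in WT and Tek to 91.5 ± 7.30 FPKM in KO, against 123 ± 2.92 in WT (log2 fold changes -0.81, -0.43 and -0.42, adjusted p = 0.000898, 0.00354 and 0.002), and these 3 were also lower with the length trend described below removed, while no endothelial marker was then higher. Egfl7 had 1001 ± 57.0 FPKM in KO and 789 ± 64.2 in WT, and Emcn 397 ± 23.3 FPKM in KO and 339 ± 6.91 in WT. Both were called higher as fitted (limma adjusted p = 0.0123 and 0.0291), and Erg was called lower (log2 fold change -0.23, adjusted p = 0.0203). These calls were lost with the length trend removed. Ptprc, which encodes CD45, stayed between 0.871 and 1.71 FPKM in the 6 libraries. Markers of other cells were also present. Cardiomyocyte markers summed to 198 to 240.2 FPKM in KO and 153 to 218 FPKM in WT, pericyte and smooth muscle markers to 362 to 568 FPKM in KO and 476 to 623 FPKM in WT, monocyte and macrophage markers to 223 to 343 FPKM in KO and 91.0 to 224 FPKM in WT, and platelet markers to 76.8 to 102 FPKM in KO and 27.8 to 50.9 FPKM in WT. Fewer cells of a type and less RNA per cell cannot be told apart in such bulk libraries. Fold changes in these libraries also ran with gene-model length, and short genes tended to be higher and long genes lower in KO. The genotype and this length trend cannot be told apart. The slope of log2(FPKM + 1) on log2 length was -0.751 to -0.687 in KO and -0.495 to -0.462 in WT, in log2 units per doubling of length. Fold changes of the main genes are therefore also given with the straight length trend removed from each library.

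In both genotypes Atp2a2 had the highest level of the 10 genes. In KO it was followed by Atp2a3, Camk2g, Atp2b4, Atp2b1, Itpr1, Itpr2, Camk2d, Camk2b and Camk2a, and in that order the neighbours Atp2b1 and Itpr1, and Itpr2 and Camk2d, overlapped between libraries. In WT the order was Atp2a2, Atp2b4, Atp2a3, Camk2g, Itpr1, Atp2b1, Itpr2, Camk2d, Camk2a and Camk2b, with overlap between Atp2b4 and Atp2a3 and between Itpr1 and Atp2b1. Camk2b thus lay above Camk2a in KO and was the lowest of the 10 genes in WT. The plot of levels by library shows Camk2b higher in KO, Camk2a, Camk2g and Atp2a3 overlapping, and the other 6 genes lower in KO.

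**Figure D1:**
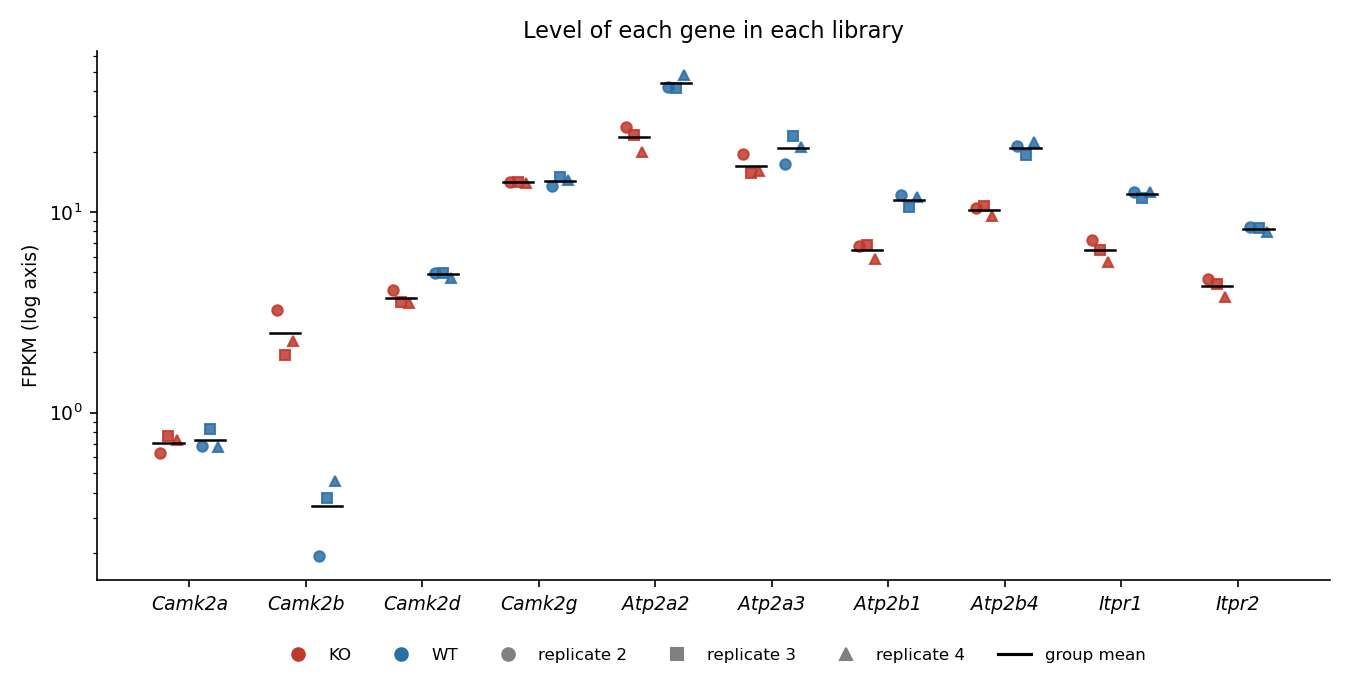
FPKM (log axis) of each of the 10 genes in each library, KO (red) left of WT (blue), with a marker shape per replicate number and a black line at the group mean. Camk2b lies at 1.93 to 3.25 FPKM in KO and 0.194 to 0.460 in WT, and Atp2a2 at 19.97 to 26.5 in KO and 41.5 to 48.2 in WT.

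Camk2b, the beta subunit of CaM kinase II, which is best known from neurons and skeletal muscle and binds actin, was the only one of the 10 genes that was higher in every KO library. It lies on chromosome 11 from 5969629 to 6066357 (gene ID 12323) of the GRCm38 build, to which all positions refer. Camk2b had 3.25, 1.93 and 2.27 FPKM in the KO libraries, against 0.194, 0.374 and 0.460 FPKM in the WT libraries. All 3 KO libraries lay above all 3 WT libraries, and KO replicate 2 was the highest. The values rest on 704, 412 and 470 reads in KO and 45, 84 and 104 reads in WT. The mean was 7.25-fold higher in KO (2.48 ± 0.683 FPKM in KO and 0.343 ± 0.136 in WT), and the log2 fold change was 1.36 (SE 0.15), or 1.54 with the length trend removed. With limma-voom on the recovered reads, a scale without the added 1 FPKM, it was 2.91 (SE 0.34). Camk2b met the expression filter through its KO libraries alone, since all WT libraries were under 1 FPKM. It was also the most variable of the 10 genes between replicates, with a coefficient of variation of 27.5% in KO and 39.7% in WT.

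Among the tested genes around Camk2b none differed by as much. Of the 8 annotated genes within 100 kb of it, 4 passed the expression filter. Ykt6, the nearest of them, which encodes a SNARE protein, had 45.7 ± 5.2 FPKM in KO and 51.1 ± 3.87 in WT and did not pass (limma adjusted p = 0.19). Nudcd3 and Aebp1 were lower in KO, with log2 fold changes of -0.30 and -0.56 (adjusted p = 0.0192 and 0.00407). Pold2, a DNA polymerase delta subunit gene, rose by 0.32 on the log2 scale (adjusted p = 0.0282).

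Marker levels of several other cell types moved in the same direction as Camk2b. In limma 6 of the 9 markers of monocytes and macrophages rose, as did 4 of the 5 platelet markers, where 18.3% of all tested genes were higher. With the length trend removed, 2 markers of each of these lists were still higher. All 3 neutrophil markers that could be tested, of 5, rose and were also higher with the trend removed. The 5 summed to 35.3 to 56.3 FPKM in KO and 14.7 to 19.2 FPKM in WT. The neutrophil marker Csf3r and the platelet marker Gp1bb met the expression filter through their KO libraries alone. Lymphocyte markers summed to 17.3 to 27.2 FPKM in KO and 8.43 to 10.7 FPKM in WT, where the 3 tested of 9 all rose and 2 were higher with the trend removed. Erythroid markers summed to 389 to 562 FPKM in KO and 249 to 375 FPKM in WT, with 4 of 5 higher as fitted and 0 with the trend removed (list median -0.03). Many of these markers are short, with a median implied length of 630 nt for erythroid and 1247 nt for monocyte and macrophage markers, and of the shortest 1081 tested genes, up to 1254 nt, 71.3% were called higher. Every marker in the table was above 0 in some library, but so were all 20893 genes, so nothing is read from this. The part of these cell types in the Camk2b values was not tested. Of the 6 Schwann cell and neuron markers, 5 were in the table, and none of them met the expression filter. They summed to 0.448 to 0.484 FPKM in KO and 0.438 to 0.666 FPKM in WT. Their part in the Camk2b values was not tested either. Cardiomyocyte markers overlapped between genotypes in their sum, with 2 of 10 tested higher and 2 lower.

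Camk2d and Camk2g, the subunit genes that most cells outside the brain use, differed little between genotypes. Camk2d, the main cardiac subunit, lies on chromosome 3 from 126595487 to 126846326 (gene ID 108058). It had 4.07, 3.58 and 3.53 FPKM in the KO libraries, against 4.96, 4.99 and 4.71 FPKM in the WT libraries. The groups did not overlap, and the mean was 1.31-fold lower in KO with a log2 fold change of -0.32 (SE 0.09). This difference passed the threshold of the fit across all genes, but not without KO replicate 3, without KO replicate 4 or with quantile normalization, and it was 0.08 with the length trend removed. Camk2d has an implied gene-model length of 11073 nt. Camk2g, the gamma subunit (gene ID 12325, chromosome 14 from 20734873 to 20794157), had 14.1, 14.2 and 13.9 FPKM in the KO libraries, against 13.5, 14.9 and 14.4 FPKM in the WT libraries. Its KO values lay within the WT range, and the log2 fold change was -0.02 (SE 0.07).

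Camk2a, the alpha subunit of forebrain neurons (gene ID 12322, chromosome 18 from 60925307 to 60988152), was low in all 6 libraries. It had 0.628, 0.766 and 0.733 FPKM in the KO libraries, against 0.682, 0.832 and 0.678 FPKM in the WT libraries, from 135 to 185 reads per library. The groups overlapped, and Camk2a did not reach the 1 FPKM in 3 libraries that the fit required. Its ratio of means was 0.971.

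Summed over its 4 genes, the CaM kinase II level overlapped between the genotypes, at 22.0, 20.5 and 20.4 FPKM in the KO libraries, against 19.4, 21.1 and 20.3 FPKM in the WT libraries. The make-up of that sum differed between them, without overlap for Camk2b, Camk2d and Camk2g. Camk2g took 67.1% ± 2.82 of it in KO and 70.5% ± 0.648 in WT, and so was the main subunit gene in all 6 libraries. Camk2d took 17.8% ± 0.653 in KO and 24.2% ± 1.27 in WT. Shares here and below were not corrected for the length trend, and with it removed the log2 fold change of Camk2d was 0.08. Camk2b took 14.7%, 9.44% and 11.1% in the KO libraries, against 1.00%, 1.78% and 2.27% in the WT libraries. Camk2a stayed between 2.85% and 3.95% in all 6. By recovered reads, in which the long Camk2d weighs more, the Camk2b share was 11.1% ± 2.45 in KO and 1.51% ± 0.588 in WT, while the Camk2g share was 53.4% ± 2.74 in KO and 53.4% ± 1.09 in WT.

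**Figure D2:**
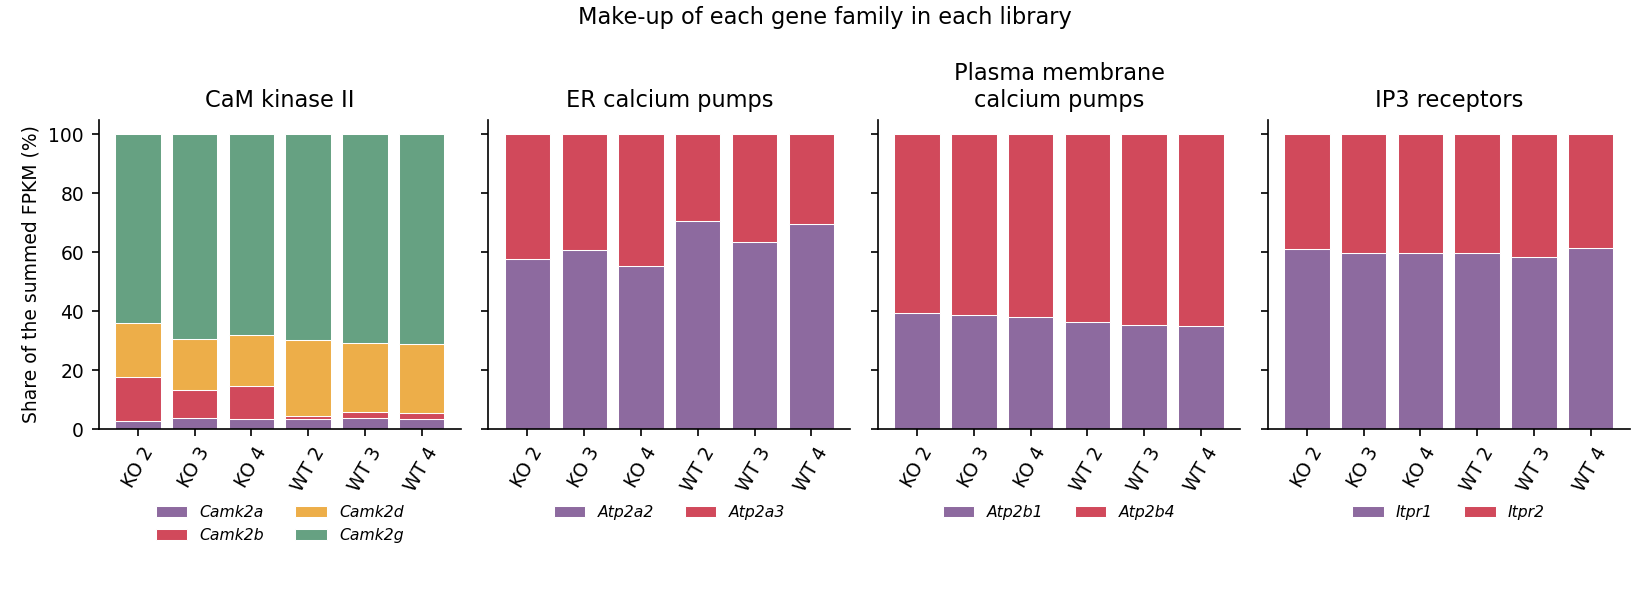
Share of each gene in the summed FPKM of its family (%), as stacked bars for the 3 KO libraries (left) and the 3 WT libraries (right) of each panel. The Camk2b band is 9.44% to 14.7% high in KO and 1.00% to 2.27% in WT, while the split between Itpr1 and Itpr2 stays within 58.5% to 61.3% for Itpr1 in all 6 libraries.

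The ER pump genes differed from each other. Atp2a2 encodes SERCA2, the pump of heart muscle and, as the SERCA2b form, of most other cells, and lies on chromosome 5 from 122453513 to 122502225 (gene ID 11938). It had 26.5, 24.1 and 19.97 FPKM in the KO libraries, against 41.7, 41.5 and 48.2 FPKM in the WT libraries. All KO libraries lay below all WT libraries, and KO replicate 4 was the lowest and WT replicate 4 the highest. The mean was 1.86-fold lower in KO (23.5 ± 3.32 FPKM in KO and 43.8 ± 3.81 in WT), the largest absolute difference in level among the 10 genes, with a log2 fold change of -0.87 (SE 0.11). With the length trend removed it was -0.72. Atp2a2 has an implied length of 5294 nt. The 1080 tested genes of its length group, from 4966 to 6229 nt, had a median log2 fold change of -0.25.

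Atp2a2 is also a cardiomyocyte gene, and cardiomyocyte transcripts were present in all 6 libraries. Their marker sums overlapped between the genotypes, and of the 10 markers tested 2 rose and 2 fell. Tnnt2, troponin T of heart muscle, had 53.4, 47.9 and 49.8 FPKM in the KO libraries, against 34.9, 49.9 and 50.3 FPKM in the WT libraries, and the groups overlapped. Pln, which encodes the SERCA2 inhibitor phospholamban, had 18.7, 12.8 and 15.2 FPKM in the KO libraries, against 9.12, 15.6 and 14.2 FPKM in the WT libraries, again with overlap. Casq2, the calcium store protein of cardiac muscle, fell to 8.86 ± 2.25 FPKM in KO, against 12.7 ± 1.32 in WT (log2 fold change -0.49, limma adjusted p = 0.023), a call that was lost under 6 of the 15 other settings. Ryr2, the calcium release channel of the cardiomyocyte, was at 0.0140 to 0.0972 FPKM in the 6 libraries. The part of cardiomyocyte RNA in the Atp2a2 values was not tested.

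Atp2a3 encodes SERCA3, a pump of endothelium, platelets and lymphoid cells, and lies on chromosome 11 from 72961169 to 72993043 (gene ID 53313). It had 19.4, 15.7 and 16.01 FPKM in the KO libraries, against 17.4, 23.8 and 21.0 FPKM in the WT libraries. The groups overlapped, because WT replicate 2 lay below KO replicate 2. The mean was 1.219-fold lower in KO, the log2 fold change was -0.27 (SE 0.12), and the difference did not pass. It did pass without KO replicate 2 (-0.36) and without WT replicate 2 (-0.38). Markers of platelets and lymphocytes, which also make SERCA3, were higher in KO, as given above, and their part in the Atp2a3 values was not tested. Atp2a3 took 42.2%, 39.4% and 44.5% of the summed ER pump level in the KO libraries, against 29.4%, 36.5% and 30.4% in the WT libraries. The sum of both pump genes was 40.6 ± 5.02 FPKM in KO and 64.6 ± 5.1 in WT.

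Both plasma membrane pump genes were lower in KO. Atp2b4, which encodes PMCA4, a pump of erythrocytes, smooth muscle and endothelium, lies on chromosome 1 from 133702674 to 133801059 (gene ID 381290). It had 10.5, 10.7 and 9.57 FPKM in the KO libraries, against 21.3, 19.1 and 22.3 FPKM in the WT libraries. The groups did not overlap. The mean was 2.04-fold lower in KO (10.3 ± 0.616 FPKM in KO and 20.9 ± 1.61 in WT), with a log2 fold change of -0.96 (SE 0.08), and -0.62 with the length trend removed. Atp2b1, which encodes the near-ubiquitous PMCA1 and lies on chromosome 10 from 98914630 to 99026143 (gene ID 67972), had 6.78, 6.82 and 5.84 FPKM in the KO libraries, against 12.1, 10.5 and 11.9 FPKM in the WT libraries. The mean was 1.78-fold lower, with a log2 fold change of -0.74 (SE 0.09), and -0.45 with the length trend removed.

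The share of Atp2b4 in the summed level of these pump genes was 60.7%, 61.1% and 62.1% in the KO libraries, against 63.7%, 64.5% and 65.2% in the WT libraries. It was thus a little smaller in KO, without overlap. Markers of pericytes and smooth muscle cells, which also make these pumps, were in part lower in KO. In limma 7 of 10 fell and none rose, although their sums overlapped. Over all tested genes 25.8% were called lower, and 49.1% in the length group from 4966 to 6229 nt. That group holds the median lengths of this list and of the fibroblast list below, 5328 and 5222 nt. With the length trend removed 7 of 10 pericyte and smooth muscle markers were lower as well, beside 11.4% of all tested genes. Fibroblast markers summed to 11.7 to 14.4 FPKM in KO and 23.2 to 26.0 FPKM in WT, without overlap. All 5 tested of 7 fell (list median -0.73) and were also lower with the straight length trend removed. Lum met the expression filter through its WT libraries alone (0.731 ± 0.193 FPKM in KO and 1.27 ± 0.0818 in WT). Col1a1 reached 1 FPKM in every WT library and in KO replicate 3 only. Of the untested markers, Pdgfra had a mean of 0.663 FPKM in KO and 1.03 in WT. Tcf21 went the other way, with 0.897 FPKM in KO and 0.712 in WT. The part of these cell types in the values of Atp2b1, Atp2b4 and the IP3 receptor genes was not tested.

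Both IP3 receptor genes were lower in KO and kept their ratio to each other. Itpr1, the type 1 receptor, which is best known from Purkinje cells and smooth muscle (gene ID 16438, chromosome 6 from 108213083 to 108551116), had 7.23, 6.49 and 5.61 FPKM in the KO libraries, against 12.5, 11.8 and 12.6 FPKM in the WT libraries. Itpr2, the type 2 receptor, which is prominent in cardiomyocytes and secretory cells (gene ID 16439, chromosome 6 from 146108299 to 146502258), had 4.61, 4.39 and 3.79 FPKM in the KO libraries, against 8.40, 8.36 and 7.97 FPKM in the WT libraries. In neither gene did the groups overlap, and KO replicate 4 was the lowest library in both. Itpr1 was 1.91-fold lower and Itpr2 1.93-fold lower in KO, with log2 fold changes of -0.84 (SE 0.10) and -0.82 (SE 0.09).

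Both genes have long models, of 10669 nt for Itpr1 and 12701 nt for Itpr2, which is the longest of the 10. With the length trend removed, their log2 fold changes were -0.46 and -0.37. Itpr1 took 60.1% ± 0.807 of their sum in KO and 59.9% ± 1.42 in WT. Itpr3, the type 3 receptor, which was not among the 10 genes, fell to 10.4 ± 1.23 FPKM in KO, against 13.5 ± 1.55 in WT in limma (log2 fold change -0.35, adjusted p = 0.0249), a call lost under 8 of the 15 other settings, among them the removal of the length trend, with which its log2 fold change was -0.01.

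Of the 9 genes that could be tested, 1 was higher and 6 were lower in KO at an adjusted p under 0.05 in limma. Among all 10806 tested genes 44.2% passed, 18.3% as higher and 25.8% as lower (1982 and 2790 genes; with median-ratio scaling 2576 and 2390). Between libraries, 1 of the 10 genes was above and 6 were below WT without overlap, and over all tested genes these shares were 22.8% and 31.9%, or 54.7% together. Since the 10 genes were chosen by this comparison, nothing is read from these counts. With the straight length trend removed, 17.9% of all tested genes passed, 6.51% as higher and 11.4% as lower. Of the 9 genes, Camk2b was then higher and Atp2a2, Atp2b1, Atp2b4, Itpr1 and Itpr2 were lower at the same threshold. Atp2a3, Camk2d and Camk2g did not pass there.

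The 6 genes called lower in KO have implied lengths from 5294 nt (Atp2a2) to 12701 nt (Itpr2). The tested genes were put in 10 groups of 1080 or 1081 by implied length. In the group with the longest models, from 8358 nt upwards, which holds Camk2d, Atp2b4, Itpr1 and Itpr2, the median log2 fold change was -0.44 and 72.2% of genes were called lower. Atp2b4, Itpr1 and Itpr2 lay below that median and Camk2d above it. In the next group, from 6233 nt, with Atp2b1, the median was -0.32. Camk2b and Atp2a2 fall in one group, from 4966 to 6229 nt, with a median of -0.25, in which 2.22% of genes were called higher. Camk2b and Atp2a2 have nearly the same implied length (5738 and 5294 nt) and differed from WT in opposite directions.

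**Figure D3:**
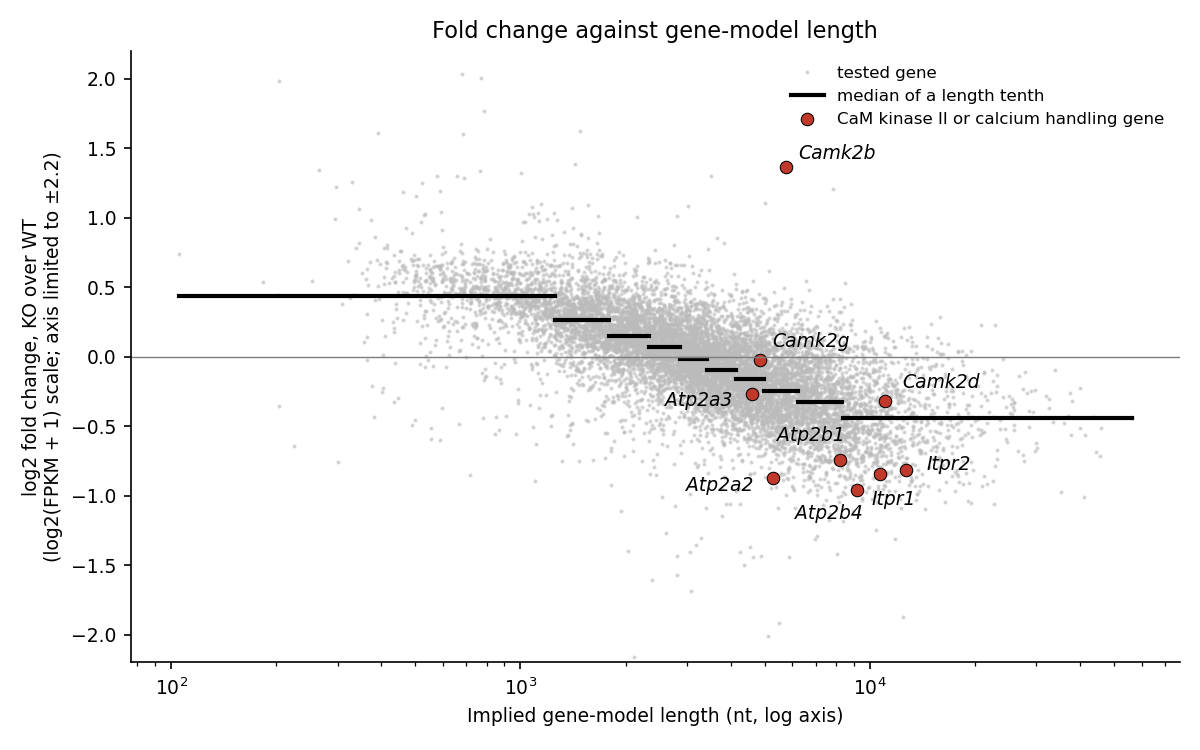
Log2 fold change (KO over WT, log2(FPKM + 1) scale) against implied gene-model length (nt, log axis) for the tested genes (grey), the 9 tested genes of this set (red), and the median of each of 10 length groups (black). The medians run from 0.44 for the shortest to -0.44 for the longest genes, and Camk2b stands at 1.36.

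Removal of the straight length trend shifts a gene by an amount set by its length alone, so the longest of these genes moved most by construction. Itpr2 stood at -0.37 in place of -0.82, and Atp2a2 at -0.72 in place of -0.87. A curved trend, fitted by loess in place of the straight line, left 1.62 for Camk2b, -0.65 for Atp2a2, -0.57 for Atp2b4, -0.43 for Itpr1, -0.38 for Itpr2 and -0.38 for Atp2b1. Nothing is read from these values about the set, which this comparison chose. Camk2d was at 0.10 and Atp2a3 at -0.09 with the curved trend removed, and neither passed.

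**Figure D4:**
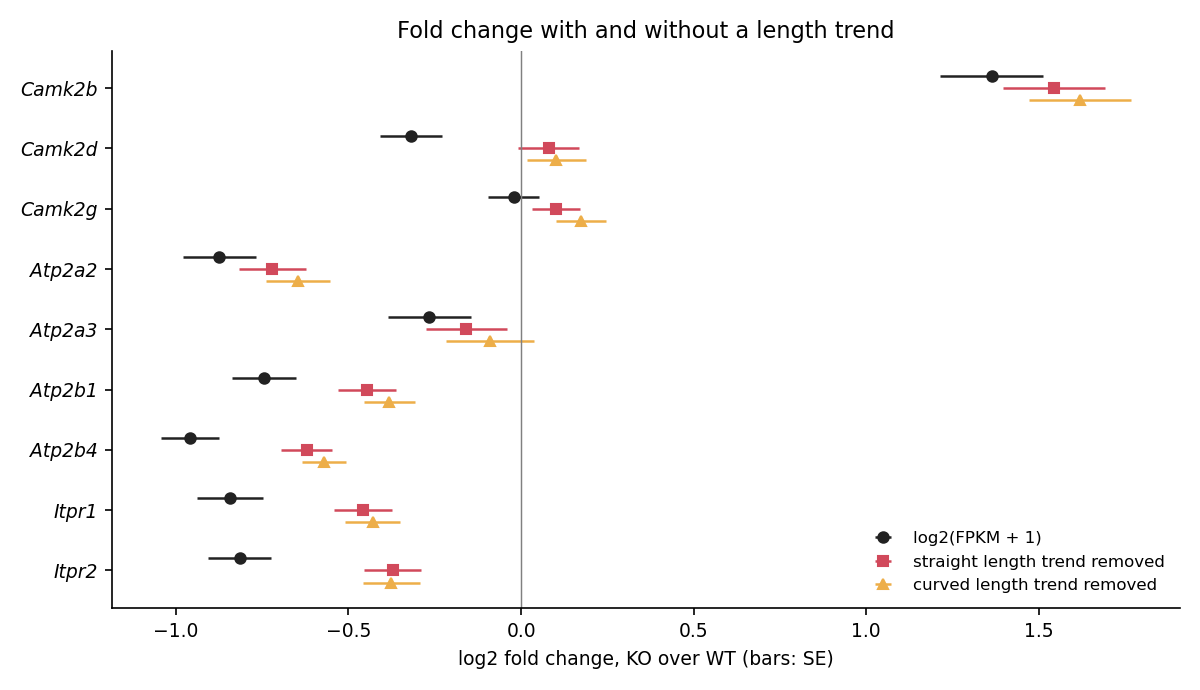
Log2 fold change (KO over WT) with SE bars for the 9 tested genes as fitted (black circles), with a straight length trend removed (red squares) and with a curved one removed (yellow triangles). Camk2d lies at -0.32 as fitted and at 0.08 and 0.10 with the trends removed, while Atp2b4 stays below 0 at -0.96, -0.62 and -0.57.

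The authors' deposited table, which compares normalized read counts, gave Camk2b a log2 fold change of 2.92. In the authors' deposited table the values were -0.96 for Atp2b4, -0.89 for Itpr2, -0.87 for Itpr1, -0.83 for Atp2a2, -0.77 for Atp2b1, -0.33 for Camk2d and -0.23 for Atp2a3. Camk2a and Camk2g stood there at 0.01 and 0.03.

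Beyond these 10 genes, 149 symbols of the calcium pathway in 11 lists by role were followed, of which 145 were in the table and 116 were tested. In limma 16 rose and 37 fell, beside the 18.3% and 25.8% of all tested genes. The same shares stand beside the counts of each list below. The median log2 fold change was -0.05 over the 116, against -0.03 over all 10806 tested genes. The genes that fell had a median implied length of 7471 nt and those that rose 1426 nt. With the straight length trend removed 8 passed as higher and 13 as lower, beside 6.51% and 11.4% of all tested genes. Of the 37 that fell, 10 were still lower and 2 were higher there, and of the 16 that rose 1 was still higher.

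Upstream of the IP3 receptors, genes of the Gq and phospholipase C list were lower in KO or did not pass. Of 14 tested members 7 fell and none rose in limma, with a list median of -0.23. Over all tested genes 25.8% were called lower. In the length group that holds the median length of the list, 4500 nt, the share was 32.6%. Gnaq, the alpha subunit of Gq, fell to 7.79 ± 0.711 FPKM in KO, against 14.4 ± 1.45 in WT (log2 fold change -0.81, SE 0.10, adjusted p = 0.000523), and it was the member that passed with the length trend removed (-0.57, adjusted p = 0.00413). Plce1 and Plcb1, which encode phospholipase C enzymes, were 2.24-fold and 1.53-fold lower by mean FPKM. Their log2 fold changes were -0.64 and -0.48 (limma adjusted p = 0.00274 and 0.00563). Plce1 was low, at 0.786 ± 0.248 FPKM in KO and 1.76 ± 0.0949 in WT. It reached 1 FPKM in every WT library but in KO only in replicate 2. Plcg1, the isoform that acts downstream of VEGF receptors, fell to 44.4 ± 2.89 FPKM in KO, against 55.2 ± 4.48 in WT (adjusted p = 0.0133), a call lost without KO replicate 4, and Itpkb, an IP3 kinase gene, fell to 93.9 ± 5.75 FPKM in KO, against 120.0 ± 7.72 in WT (adjusted p = 0.0055). Calls for Plce1, Plcb1, Plcg1 and Itpkb were lost with the length trend removed. Gna11, another Gq-class subunit gene, had 76.7 ± 4.70 FPKM in KO and 80.1 ± 2.13 in WT, and did not pass. Inpp5a, an IP3 phosphatase gene, had 49.5 ± 2.31 FPKM in KO and 51.3 ± 2.97 in WT, and did not pass either.

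Plasma membrane channels were lower or did not pass. Over all tested genes 25.8% were called lower, and 49.1% in the length group that holds the median length of this list, 5499 nt. Of 10 tested channel genes 5 fell and none rose in limma, with a median of -0.35, and none of the 5 passed with the length trend removed. They include Piezo1, the shear-sensitive channel of endothelium (28.2 ± 3.20 FPKM in KO and 39.9 ± 0.995 in WT, adjusted p = 0.00203), Pkd1 (polycystin, 1.63-fold lower, adjusted p = 0.000522), Trpm7 (1.62-fold lower, adjusted p = 0.00194) and P2rx7, an ATP-gated channel (1.78 ± 0.0544 FPKM in KO and 2.76 ± 0.164 in WT, adjusted p = 0.00491). Pkd1 has an implied length of 15520 nt, and its log2 fold change went to -0.14 with the trend removed.

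In store-operated entry, by which an emptied ER is refilled, sensors and channel differed. The ER calcium sensor genes Stim1 and Stim2 fell. Stim1 had 8.38 ± 1.10 FPKM in KO and 11.7 ± 0.872 in WT (adjusted p = 0.00716), and Stim2 19.9 ± 0.399 FPKM in KO and 23.7 ± 0.385 in WT (adjusted p = 0.0165). Orai1, the pore-forming channel gene, rose to 23.2 ± 0.913 FPKM in KO, against 18.9 ± 1.218 in WT (adjusted p = 0.0146), and Cracr2b, an Orai regulator gene, rose to 103 ± 10.9 FPKM in KO, against 84.0 ± 8.86 in WT (adjusted p = 0.0338). None of these 4 passed with the straight length trend removed. The Stim2 call was also lost with median-ratio scaling, with the replicate number as a block, without KO replicate 3 or without WT replicate 4. The Cracr2b call was lost under 9 of the 15 other settings. Saraf, an inhibitor of this entry, had 102 ± 6.19 FPKM in KO and 99.4 ± 3.46 in WT and did not pass.

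Among other release channels and their partners, 5 of 12 tested genes fell and 1 rose, with a median of -0.17. Tpcn1, an endolysosomal channel gene, fell to 15.8 ± 0.355 FPKM in KO, against 20.01 ± 0.732 in WT (adjusted p = 0.00531), and Mrvi1, which encodes an IP3 receptor partner in smooth muscle and platelets, fell to 2.29 ± 0.642 FPKM in KO, against 4.18 ± 0.978 in WT (adjusted p = 0.0121). Jph2, a junctophilin gene of muscle, fell to 2.92 ± 0.846 FPKM in KO, against 4.46 ± 0.410 in WT (adjusted p = 0.0248), a call lost without KO replicate 3 or WT replicate 4. Bok, a BCL2 family gene whose product binds IP3 receptors, rose to 38.5 ± 1.23 FPKM in KO, against 29.4 ± 1.99 in WT (adjusted p = 0.00322). Neither these 4 calls nor those of Itpr3 and Itprip, which also fell, held with the length trend removed. Fkbp1a, which encodes a small binding protein of release channels, had 424 ± 32.5 FPKM in KO and 382 ± 43.7 in WT and did not pass.

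Of the other pumps and exchangers, 3 of 13 symbols were tested. Atp2c1, the calcium pump of the Golgi, fell to 10.5 ± 0.523 FPKM in KO, against 15.2 ± 1.25 in WT (log2 fold change -0.50, adjusted p = 0.00165) and also passed with the length trend removed (-0.34, adjusted p = 0.0192). Atp2a1, the pump of fast skeletal muscle, Atp2b2, and the sodium-calcium exchanger gene Slc8a1 were at or under 0.549 FPKM on average in both genotypes and were not tested.

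Of the mitochondrial uptake genes 10 were tested, of which 5 rose and 1 fell, with a median of 0.18. Smdt1, a small regulator subunit of the mitochondrial calcium uniporter, rose to 140.1 ± 9.81 FPKM in KO, against 102 ± 3.23 in WT (adjusted p = 0.0012), Vdac2, a pore gene of the outer membrane, to 117 ± 3.02 FPKM in KO, against 94.2 ± 6.21 in WT (adjusted p = 0.0062), and Mcub, a subunit that dampens the uniporter, to 4.37 ± 0.799 FPKM in KO, against 3.00 ± 0.308 in WT (adjusted p = 0.0222). Mcur1, a uniporter regulator gene, fell to 8.08 ± 0.573 FPKM in KO, against 10.5 ± 0.786 in WT (adjusted p = 0.0129). None of these 4 calls held with the length trend removed. The Mcub call was lost without KO replicate 2, KO replicate 4 or WT replicate 3 and with limma-voom, and the Mcur1 call without WT replicate 4. Vdac1 had 59.2 ± 0.842 FPKM in KO and 50.9 ± 4.72 in WT (adjusted p = 0.0442) and Vdac3 83.6 ± 2.05 FPKM in KO and 68.7 ± 11 in WT (adjusted p = 0.0422). Both rose, and each lost that call under 10 of the 15 other settings.

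The genes listed as ER calcium-binding proteins fell in part, and these calls held with the length trend removed. Of 15 tested members 6 fell and none rose in limma, with a median of -0.07, and with the length trend removed 7 fell and 1 rose. Canx, the lectin chaperone calnexin, fell to 56.9 ± 6.61 FPKM in KO, against 82.4 ± 8.47 in WT (adjusted p = 0.00302, and 0.015 with the trend removed). Hsp90b1, the ER form of HSP90, fell to 146 ± 18.2 FPKM in KO, against 214 ± 30.9 in WT (adjusted p = 0.00612, and 0.0108). Hspa5, which encodes the chaperone BiP, fell to 133 ± 22.6 FPKM in KO, against 181.96 ± 32.5 in WT (adjusted p = 0.0317), and Calu, calumenin, to 104 ± 11.2 FPKM in KO, against 135 ± 16.4 in WT (adjusted p = 0.0175). Both calls were lost without KO replicate 2, KO replicate 4, WT replicate 2 or WT replicate 4. Calr, calreticulin, the main calcium buffer of the ER, had 360.1 ± 24.6 FPKM in KO and 397 ± 49.3 in WT and did not pass as fitted (adjusted p = 0.288), but did with the trend removed (log2 fold change -0.31, adjusted p = 0.0499). Pdia3 had 206 ± 3.80 FPKM in KO and 218 ± 24.8 in WT and Nucb1 105 ± 3.71 FPKM in KO and 108 ± 3.63 in WT, and neither passed. Sdf4, with 55.2 ± 3.84 FPKM in KO and 51.5 ± 0.814 in WT, did not pass as fitted and was higher with the trend removed (0.27, adjusted p = 0.0283).

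Downstream of calcium, Calm3, a calmodulin gene, had 194 ± 6.63 FPKM in KO and 179 ± 6.17 in WT and did not pass. Calm2, which also encodes calmodulin, had 231 ± 10.2 FPKM in KO and 199 ± 11.6 in WT and passed as higher (adjusted p = 0.038), a call lost under 10 of the 15 other settings, among them each KO library left out in turn. Camk1, another calmodulin-dependent kinase, rose to 92.0 ± 0.403 FPKM in KO, against 74.7 ± 4.53 in WT (adjusted p = 0.00688), and Mylk, myosin light chain kinase, fell to 11.8 ± 1.63 FPKM in KO, against 18.1 ± 1.5996 in WT (adjusted p = 0.0023); neither call held with the length trend removed. Of the 10 tested members of this list 2 rose and 1 fell, with a median of 0.02.

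In the calcineurin and NFAT list 4 of 11 tested genes fell and none rose in limma, with a median of -0.21. They were Ppp3ca, the catalytic subunit A alpha (8.59 ± 0.771 FPKM in KO and 12.9 ± 0.355 in WT, adjusted p = 0.00122), the transcription factor genes Nfatc1 (7.42 ± 0.303 FPKM in KO and 9.71 ± 0.791 in WT, adjusted p = 0.00983) and Nfatc3 (4.85 ± 0.507 FPKM in KO and 7.51 ± 0.372 in WT, adjusted p = 0.0018), and the calcineurin inhibitor gene Cabin1 (8.39 ± 0.397 FPKM in KO and 11.1 ± 0.963 in WT, adjusted p = 0.00909). The Nfatc1 call was lost without WT replicate 4. None of the 4 passed with the length trend removed, where the other catalytic gene Ppp3cc, named after its values were seen, was higher (0.36, adjusted p = 0.0451).

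In the list of MEF2, class IIa histone deacetylases (HDACs), CREB and SRF, nuclear targets of calcium-dependent kinases, 5 of 9 genes fell and none rose in limma, and with the straight trend removed 2 were lower and 4 higher. Creb1 fell to 3.30 ± 0.421 FPKM in KO, against 6.10 ± 0.517 in WT (log2 fold change -0.72, adjusted p = 0.00087) and Mef2a to 9.66 ± 0.946 FPKM in KO, against 16.3 ± 1.47 in WT (-0.70, adjusted p = 0.000721), and both were also lower with the length trend removed (-0.41 and -0.33). Mef2d fell to 24.3 ± 1.38 FPKM in KO, against 31.4 ± 2.76 in WT (adjusted p = 0.00794) but did not pass there (-0.17). Mef2c fell to 1.41 ± 0.0764 FPKM in KO, against 2.27 ± 0.0857 in WT (-0.44, adjusted p = 0.00472), but with the straight trend removed it was higher (0.50, adjusted p = 0.0118). Its implied length of 56357 nt is the greatest of all tested genes, and with the curved trend removed it did not pass.

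S100 and annexin genes were higher or did not pass. Of 15 tested genes 6 rose, all of them S100 genes, and none fell in limma, with a median of 0.24. S100a1, a regulator of SERCA2 in heart muscle, rose to 194 ± 16.8 FPKM in KO, against 124 ± 6.33 in WT (adjusted p = 0.000593), S100a13 to 161 ± 23.1 FPKM in KO, against 102 ± 1.63 in WT (adjusted p = 0.000977), S100a4 to 22.7 ± 3.37 FPKM in KO, against 11.6 ± 2.12 in WT (adjusted p = 0.00101) and S100a16 to 247 ± 16.6 FPKM in KO, against 176 ± 6.07 in WT (adjusted p = 0.00102). S100a16, with the longest model of these 4 at 1995 nt, also passed with the length trend removed (0.31, adjusted p = 0.0107), and the other 3 did not. S100a6 and S100a10 rose as well, S100a6 to 215 ± 15.2 FPKM in KO, against 149 ± 26.4 in WT (adjusted p = 0.00513), and S100a10 to 426 ± 24.8 FPKM in KO, against 310.2 ± 32.1 in WT (adjusted p = 0.00332). Neither of these calls held with the length trend removed (0.03 and -0.08), and that of S100a10 was also lost with quantile normalization. S100a11 had 654 ± 38.6 FPKM in KO and 551 ± 84.7 in WT and did not pass as fitted (adjusted p = 0.0873), and it was lower with the trend removed (-0.37, adjusted p = 0.0394). The 8 annexin genes did not pass. The most abundant of them, Anxa2, had 567 ± 50.04 FPKM in KO and 482 ± 69.0 in WT, and Anxa5 281 ± 11.2 FPKM in KO and 267 ± 14.7 in WT.

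**Figure D5:**
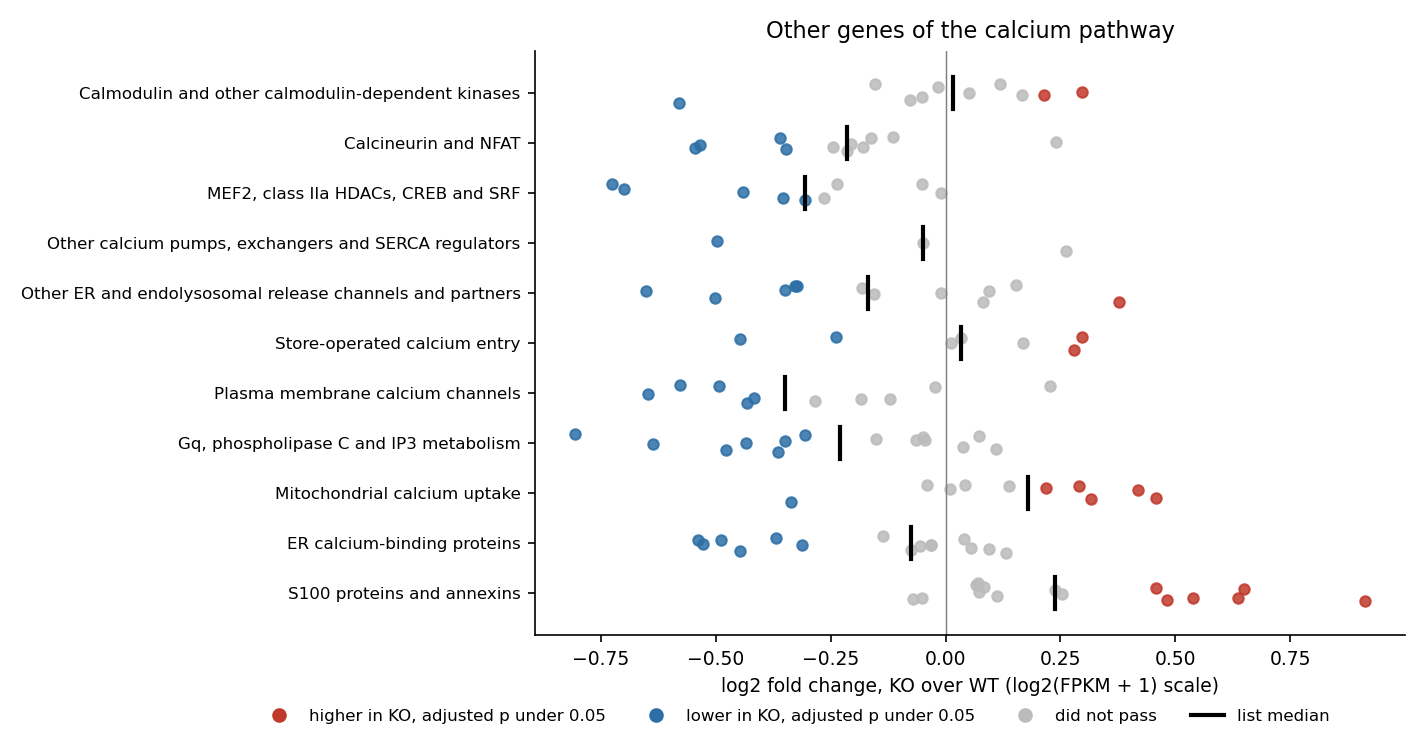
Log2 fold change (KO over WT, log2(FPKM + 1) scale) of each tested gene of the 11 lists, red where higher and blue where lower at an adjusted p under 0.05, grey otherwise, with a black line at the list median. The list medians run from -0.35 for plasma membrane channels to 0.24 for S100 proteins and annexins.

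The tested genes whose pattern over the 6 libraries was most like that of Camk2b, by Pearson's r of log2(FPKM + 1), were Akr1c19 (r = 0.999), 2410022M11Rik (0.9947) and Trnau1ap (0.9913). For Atp2a2 they were Mycbp2 (0.9996), Nfatc3 (0.9994) and Fbxw7 (0.9988), and for Atp2b4 Bmpr2 (0.9996), B230219D22Rik (0.9996) and Prrc2c (0.999). These are descriptions of 6 libraries, which are the same for all genes and fall into 2 genotypes. The sizes differed: Akr1c19 had 13.4 ± 0.98 FPKM in KO and 9.12 ± 0.447 in WT, a far smaller ratio than that of Camk2b, while Bmpr2, a BMP receptor gene, had 3.74 ± 0.293 FPKM in KO and 10.8 ± 1.23 in WT.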

How the data were processed

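RNA of 6 libraries was sequenced from TruSeq stranded mRNA libraries, per the labels' protocols. The authors deposited FPKM for 20893 genes. A second deposited table of 17686 genes gives the authors' mean normalized signal per group, the fold change as a ratio, its log2 and the p-value and q-value, with DESeq2 named per the file headers. The submitters' processing notes name, in no order, DESeq2 1.22.1, featureCounts 1.6.2, HISAT2 2.1.0, StringTie 1.3.4d and fastp 0.19.3, with mm10 as the build. Whether counting used the strand was not given in the sources used here.

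FPKM set against the authors' group means gave back whole reads (all values up to 1000 reads were whole within 0.05) and, from these, the depth and an implied gene-model length. Reads could be recovered for all but 3207 genes. A gene entered the test where 3 or more libraries had 1 FPKM or more, which left 10806 genes. The test was limma 3.58.1 with a trended prior in R 4.3.3, with genotype as its single term and log2(FPKM + 1) as response, and the threshold an adjusted p under 0.05 (Benjamini-Hochberg). Python 3.11.15 was used for the rest, and the fits were tested on simulated data.

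The members and lists were chosen with earlier results of these data known. The lists hold symbols by textbook role. Named from each list were up to 4 genes with the smallest p among those that passed and tested genes with a mean of at least 50 FPKM in a group. Of the annexin genes with such a mean, values are given for Anxa2 and Anxa5 alone. Itpr3, Casq2, Itprip, Kdr, Cdh5, Tek, Egfl7, Emcn, Erg, the genes around Camk2b and Ppp3cc were added after their values were seen. So were Lum, Col1a1, Pdgfra, Tcf21, Csf3r, Gp1bb and Hdac9. The 3 genes most like Camk2b, Atp2a2 and Atp2b4 were taken by Pearson's r. The replicate numbers are not said to pair the libraries, so they were used as a block only as an alternative. Other settings were quantile and median-ratio scaling, other filters, a pseudocount of 0.1, each library left out, a straight length trend removed, limma-voom and an added log2 fold change of 1; the curved trend, fitted by loess, was chosen after seeing the data. Coordinates are from the GRCm38.p6 annotation. 11 annotated genes overlap members, 4 of them in the table and at most at 0.244 FPKM. No sequences are shown. A gene named by the rule is not reported here.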

Additional observations from a re-analysis of the deposited data

How the results depend on the processing

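Over all tested genes 1982 were called higher and 2790 lower in KO, and 41.5% of the calls were higher; with median-ratio scaling 2576 were higher and 2390 lower (51.9% higher). Removal of the straight length trend gave 704 higher and 1232 lower, of the curved trend 1081 and 1002, and a required change of 1 log2 unit gave 40 and 60. Over the 116 tested list genes, of which 16 were called higher and 37 lower, these settings gave 8, 8 and 0 higher and 13, 12 and 0 lower. Of these 53 list calls, 42 were lost with the straight and 41 with the curved length trend removed, 12 with quantile normalization, 14 without the expression filter, 4 with median-ratio scaling, 1 with limma-voom and 6 to 15 when a library was left out. Of the 10 calcium handling and CaM kinase II genes, 0 were called higher with FPKM of at least 5, a filter that removes Camk2b, and 0 were called lower with the required change. Leaving out each library in turn gave 1411 to 1998 genes higher and 1981 to 2681 lower, and for the 10 genes 1 higher and 5 to 7 lower, and for the lists 11 to 17 higher and 26 to 38 lower. Camk2d was -0.32 as fitted and turned to 0.08 and 0.10 with the straight and the curved length trend removed. With the replicate number as a block 1542 genes were higher and 2207 lower. In that fit 1 of the 10 genes was higher and 6 lower, and 9 of the 53 list calls were lost. Correlations of the deviations of same-numbered libraries were -0.195, -0.349 and -0.222, and those of differently numbered libraries 0.002 to 0.199. It is not stated whether the numbers pair the libraries, and these correlations cannot settle it. Depth limits Camk2a, with 135 to 185 reads per library, and Camk2b in WT, with 45 to 104 reads.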

Other observations

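In the authors' deposited annotation all 10 genes carry the KEGG term Calcium signaling pathway, which 201 genes of the table share. Of the other 191 genes of that term, a count added after the data were seen, 88 were tested, and 10 rose and 32 fell in limma. Over all tested genes 18.3% were higher and 25.8% lower. In the length group that holds the median length of the 88, 4299 nt, 32.6% were lower. The median log2 fold change of the 88 was -0.17, against -0.03 over all tested genes. With the straight length trend removed 4 rose, 15 fell and the median was -0.07, beside 6.51% higher and 11.4% lower over all tested genes.

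Markers of a single cell type did not all differ in the same way. Among pericyte and smooth muscle markers, Pdgfrb had 7.32 ± 2.09 FPKM in KO and 16.5 ± 2.78 in WT (log2 fold change -1.09, implied length 6109 nt) and Abcc9 1.55 ± 0.219 FPKM in KO and 5.86 ± 1.06 in WT (-1.42, 8063 nt), and both were called lower. Acta2 had 145 ± 30.5 FPKM in KO and 145 ± 22.8 in WT (implied length 2834 nt) and Tagln 137 ± 30.5 FPKM in KO and 128 ± 20.3 in WT (0.09, 1586 nt), and neither passed. Among cardiomyocyte markers Myh6 was called lower (-0.43, 6349 nt; a call lost under 10 of the 15 other settings), while Myl2 (0.49, 2583 nt) and Nppa (0.62, 860 nt) were called higher. With the length trend removed Pdgfrb was at -0.89 and still lower, and Myl2 at 0.40 and still higher (limma adjusted p = 0.00863 and 0.0401). Acta2 at -0.05, Myh6 at -0.21 and Nppa at 0.18 did not pass there (adjusted p = 0.84, 0.315 and 0.484). These markers were named after their values were seen.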
